A study of Mus musculus with 8 samples.

Results

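Foxd1, Foxb1, Lhx8 and Bhlhe22 encode transcription factors, and they are described here through the amount of the chromatin protein SMCHD1 found around them. Their spans (GRCm38) came from the study's table of genes whose RNA changed in the frontonasal prominence, the embryonic tissue that forms the nose and snout, of MommeD43 embryos. Every region of the ChIP-seq table that shared at least 1 base with a span was taken. This gave 7 of the 2840 regions, with 3 at Foxd1, 2 at Bhlhe22 and 1 each at Foxb1 and Lhx8. The genes were picked as lying near SMCHD1 peaks, so having a region is not a finding, and neither is having changed RNA.

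SMCHD1 was measured in neural stem cells (NSCs) from the cortex of female C57BL/6J embryos (E14.5), grown for fewer than 10 passages. GFP is fused to the endogenous SMCHD1 in all lines, and an antibody to GFP recovered the DNA bound to it from nuclei digested with MNase. There were 3 lines of genotype Smchd1GFP+/+ (WT) and 3 of genotype Smchd1GFPMommeD43/MommeD43 (MommeD43, a missense change first found in a mutagenesis screen). For these lines the study recreated the change by genome editing in mice that carry the GFP fusion. A whole cell extract library of each genotype, 1 each, was not analysed here. The authors merged the lines of a genotype into 1 log2 value per region, so the variation among lines is unknown and genotypes are compared without a test. The study states that the WT ChIP-seq data had been published earlier and gives no batches, so batch and genotype cannot be told apart. The ChIP table holds no expression values, so the NSC label could not be checked against marker genes. NSCs are not frontonasal tissue, so the RNA table and the ChIP table used here come from different cells, and RNA of NSCs was not analysed here.

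SMCHD1 is a non-canonical member of the SMC family, whose other members shape chromosomes. It has an ATPase domain at one end and a hinge domain that contacts nucleic acid at the other, and it is best known as a repressor of genes on the inactive X chromosome and in several autosomal gene clusters. Forkhead factors such as Foxd1 and Foxb1 bind DNA through a winged helix. LIM homeobox factors such as Lhx8 join a homeodomain to protein-binding LIM domains, and basic helix-loop-helix (bHLH) factors such as Bhlhe22 bind E-box sequences as dimers.

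Each region is a published SMCHD1 peak with 5000 bases on each side. Foxd1, which is needed for the stroma of the kidney and for patterning of the retina, lies on the plus strand at chr13:98354242-98359305 (ENSMUSG00000078302). The main region of a gene is the one sharing most bases with it. At Foxd1 there was a tie, since 2 windows hold all 5064 bases of the gene, and the one whose peak centre is nearer the gene start was taken. Its peak, chr13:98353801-98354850, spans the gene start. Of that peak's 1050 bases, 378 lie in the 5′ UTR and 231 in coding sequence. A second peak, chr13:98352451-98353650, ends 591 bases before the gene, and the other one, chr13:98356801-98357550, lies wholly in the 3′ UTR. Foxd1 was the only 1 of the 4 genes with a peak inside its span.

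At the remaining genes the peaks lay upstream. Foxb1, known for its part in the developing hypothalamus, lies on the minus strand at chr9:69757710-69760940 (ENSMUSG00000059246), and its peak, chr9:69762601-69763200, is 1660 bases from it, in an intron of the antisense transcript B230323A14Rik. Lhx8, known for basal forebrain cholinergic neurons and for palate and tooth mesenchyme, lies on the minus strand at chr3:154306294-154330659 (ENSMUSG00000096225). Its peak, chr3:154331101-154331700, is 441 bases away, in an intron of AI606473, a non-coding transcript that starts 162 bases upstream of Lhx8 and runs the other way. Bhlhe22, a repressor that shapes the identity of neurons in cortex, retina and spinal cord, lies on the plus strand at chr3:18054174-18057517 (ENSMUSG00000025128). Its main peak, chr3:18052351-18052800, is 1373 bases from the gene and its other peak, chr3:18049801-18050550, is 3623 bases from it, both between annotated genes. All 7 windows hold the start of their gene, with peak centres 0.084 to 3.998 kb from it. Of all 2840 peaks, 834 (29.4%) had the start of any protein-coding gene within 5000 bases of their centre. The rule that a window must touch the gene favours such windows.

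**Figure D1:**
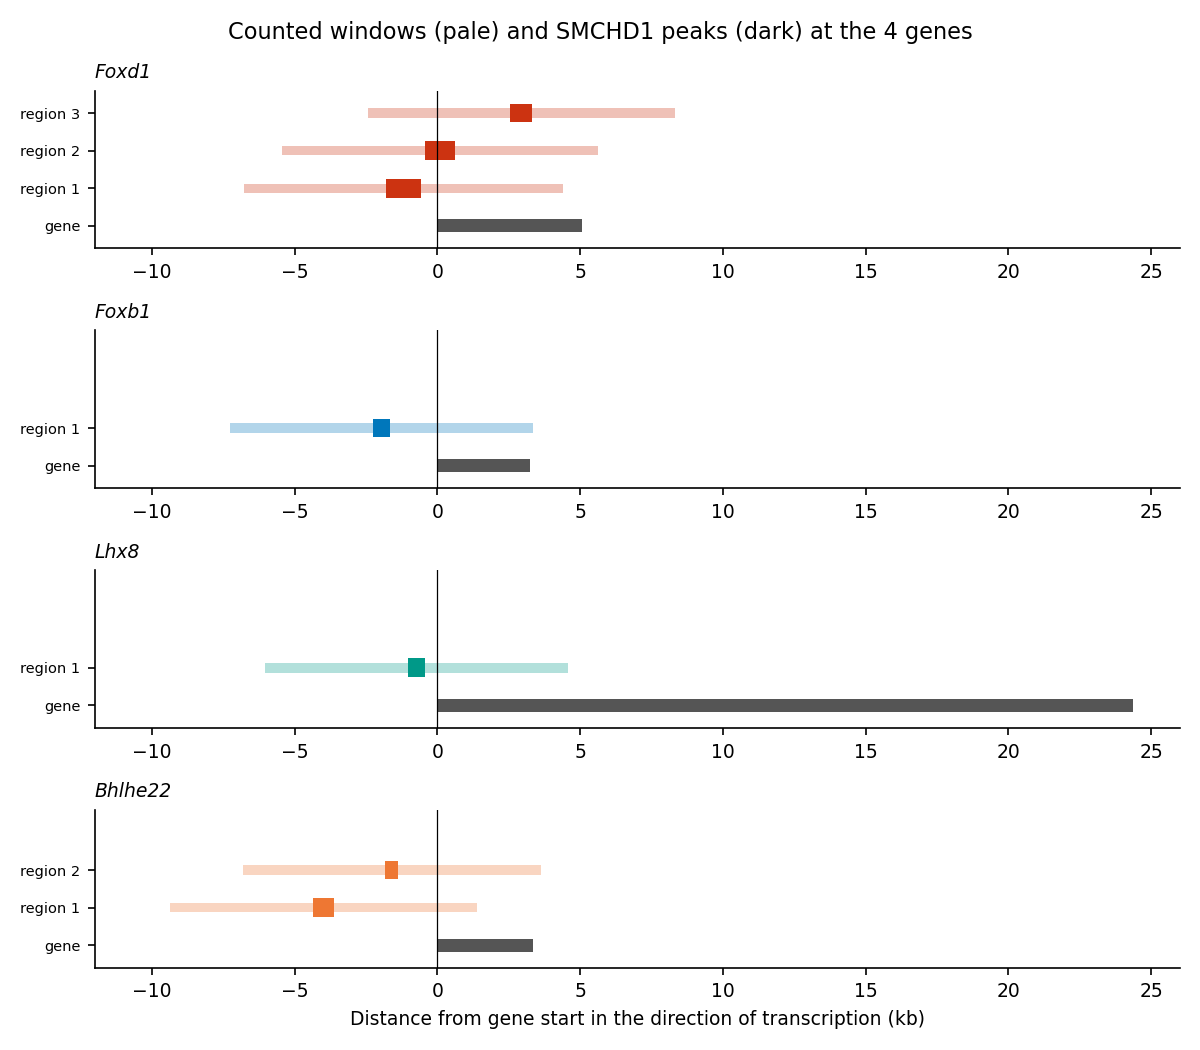
Windows (pale bars), SMCHD1 peaks (dark bars) and gene spans (grey bars) of the 4 genes, by distance from the gene start in kb in the direction of transcription. The peak of the main Foxd1 region covers the gene start, and the peaks at Foxb1, Lhx8 and Bhlhe22 lie to its left.

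The sequences under the main peaks show how far their base composition differs. The RefSeq promoter of Foxd1 (GRCm38.p6) lies wholly inside its peak. Of the 4 genes, 2 had a promoter in the RefSeq table, Foxd1 and Lhx8; Foxb1 and Bhlhe22 had no entry. The Foxd1 promoter is shown up to the first annotated exon (chr13:98353995-98354241, plus strand), where its 247 bases hold 12 CpG, and beside it are the central 300 bases of the main peaks of Foxb1 (chr9:69762751-69763050, minus strand), Lhx8 (chr3:154331251-154331550, minus strand) and Bhlhe22 (chr3:18052426-18052725, plus strand). Capitals mark CG, which reads the same on both strands.
Foxd1 promoter: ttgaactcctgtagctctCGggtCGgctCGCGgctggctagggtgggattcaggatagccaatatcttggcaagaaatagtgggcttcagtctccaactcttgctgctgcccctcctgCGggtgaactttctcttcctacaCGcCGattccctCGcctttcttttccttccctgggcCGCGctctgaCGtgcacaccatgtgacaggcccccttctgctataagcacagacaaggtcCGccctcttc
Foxb1 peak centre: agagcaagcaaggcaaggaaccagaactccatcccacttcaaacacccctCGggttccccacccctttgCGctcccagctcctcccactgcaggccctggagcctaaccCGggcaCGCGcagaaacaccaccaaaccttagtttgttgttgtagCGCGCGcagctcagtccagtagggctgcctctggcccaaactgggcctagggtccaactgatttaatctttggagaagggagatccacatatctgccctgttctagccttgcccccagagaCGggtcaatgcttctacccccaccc
Lhx8 peak centre: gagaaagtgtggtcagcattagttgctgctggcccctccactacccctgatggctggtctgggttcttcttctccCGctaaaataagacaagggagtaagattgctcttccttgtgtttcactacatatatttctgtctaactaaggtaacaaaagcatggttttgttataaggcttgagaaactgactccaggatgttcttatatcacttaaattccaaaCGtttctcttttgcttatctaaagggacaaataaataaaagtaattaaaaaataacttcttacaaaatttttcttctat
Bhlhe22 peak centre: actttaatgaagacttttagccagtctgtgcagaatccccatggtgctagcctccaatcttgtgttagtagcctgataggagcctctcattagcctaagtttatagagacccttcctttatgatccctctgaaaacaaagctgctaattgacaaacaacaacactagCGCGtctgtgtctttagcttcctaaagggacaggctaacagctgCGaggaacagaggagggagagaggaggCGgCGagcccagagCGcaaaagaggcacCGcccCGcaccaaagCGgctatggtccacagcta

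CpG, the dinucleotide at which mammalian DNA is mostly methylated, was present in the central 300 bases of 83.9% of the 2840 peaks, with a median of 2. The centre of the Foxd1 main peak held 22 CpG, a number reached by 6.44% of peaks, and its GC content was 65.3%. Foxb1 and Bhlhe22 held 9 each, reached by 19.4% of peaks, and Lhx8 held 2, reached by 64.3%. Lhx8 was thus at the median, and the rest were above it. Over the whole 300 bases of the promoter entries, Foxd1 held 15 CpG, reached by 34.6% of the 32851 promoters, and Lhx8 held 4, reached by 68.6%; 94.6% of promoters held at least 1.

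**Figure D2:**
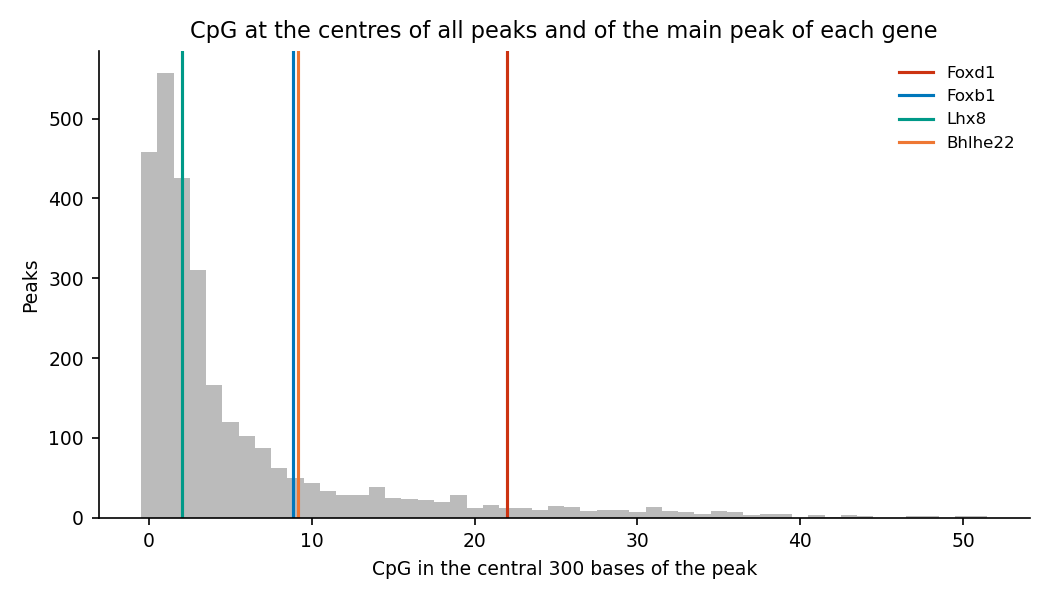
Number of CpG in the central 300 bases of each of the 2840 peaks (grey bars, number of peaks) with the main peak of each gene as a coloured line. Foxd1 lies at 22, Foxb1 and Bhlhe22 at 9 (drawn side by side) and Lhx8 at 2.

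Around the peaks, the main windows were more alike. Their GC content was 49.9% at Foxd1, 50.3% at Foxb1, 49.1% at Lhx8 and 45.1% at Bhlhe22, against a median of 41.8% over all windows. Repeats took up 15.7%, 17.2%, 10.8% and 11.4% of them in the same order, against a median of 24.4%. Windows with a gene start were favoured by the rule, and its part in this was not tested.

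The SMCHD1-GFP ChIP signal was above the median of all regions at each of the 4 genes in both genotypes. Levels throughout are ChIP reads scaled to library size, with no whole cell extract subtracted. How far the GC content and repeats of a window bear on its level was not tested. The authors' merged log2 normalised count of the main window was 9.18 in WT and 9.35 in MommeD43 at Foxd1, 9.03 and 9.08 at Foxb1, 9.17 and 9.25 at Lhx8, and 8.34 and 8.28 at Bhlhe22. The medians of all 2840 regions were 7.76 in WT and 7.83 in MommeD43. The WT level lay above 85.1% of regions at Foxd1, 84.8% at Lhx8, 81.4% at Foxb1 and 63.4% at Bhlhe22. These places depend on which regions a gene is set against. The windows of Foxb1 and Lhx8 share no bases with another, and among the 1938 regions of that kind their WT levels lay above 94.7% and 96.8%. Those of Foxd1 and Bhlhe22 share bases with other windows, and among the 902 regions of that kind, a comparison chosen after seeing the data, their WT levels lay above 59.3% and 31.0%, so that Bhlhe22 was below the median of its kind.

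The reads behind these values set their precision. Low values of the table behaved as means of log2 counts over 3 libraries, from which the reads of any region can be estimated. Foxd1 had an estimated 421 reads per library in WT and 407 in MommeD43, Foxb1 380 and 338, Lhx8 420 and 381, and Bhlhe22 235 and 194. The median region had 158 and 142. All intervals given here are 95% intervals from these reads and cover counting error only, since reads duplicated by PCR and variation between lines are not in them.

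Levels were compared between genes per kb of window, on the log2 scale. In WT the order was Lhx8 (5.77), Foxd1 (5.71), Foxb1 (5.62) and Bhlhe22 (4.95). Foxd1 minus Lhx8 was -0.06 (interval -0.17 to 0.06) and Foxd1 minus Foxb1 was 0.09 (-0.03 to 0.21), so these neighbours did not differ beyond counting error, whereas Foxb1 minus Lhx8 was -0.14 (-0.26 to -0.03). In WT Bhlhe22 stood below the rest, with Foxb1 minus Bhlhe22 at 0.67 (0.53 to 0.81). In MommeD43 the order of levels was Foxd1 (5.88), Lhx8 (5.85), Foxb1 (5.68) and Bhlhe22 (4.90). Foxd1 minus Lhx8 was then 0.04 (-0.08 to 0.15), so the exchange of the leading genes was within counting error, whereas Foxd1 minus Foxb1 was 0.20 (0.08 to 0.33), beyond it. Foxb1 minus Bhlhe22 was 0.78 (0.63 to 0.93). The intervals of the 6 pairs were not adjusted for their number.

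The next listed regions outside the genes, which are windows around other SMCHD1 peaks, had lower levels per kb than the genes they flank. The region after Foxd1, with its peak centre 13.7 kb downstream of the gene start, had levels per kb of 5.45 in WT and 5.67 in MommeD43, close under those of the gene itself. The region before Bhlhe22, 39.6 kb upstream, had 2.49 and 2.39. No other region lay near Foxb1 or Lhx8. The closest were 665 kb away for Foxb1, at 4.50 and 4.64, and 873 kb away for Lhx8, at 3.55 and 3.36. Foxb1 and Lhx8 were thus single regions, and Foxd1 belonged to a row of neighbouring ones.

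**Figure D3:**
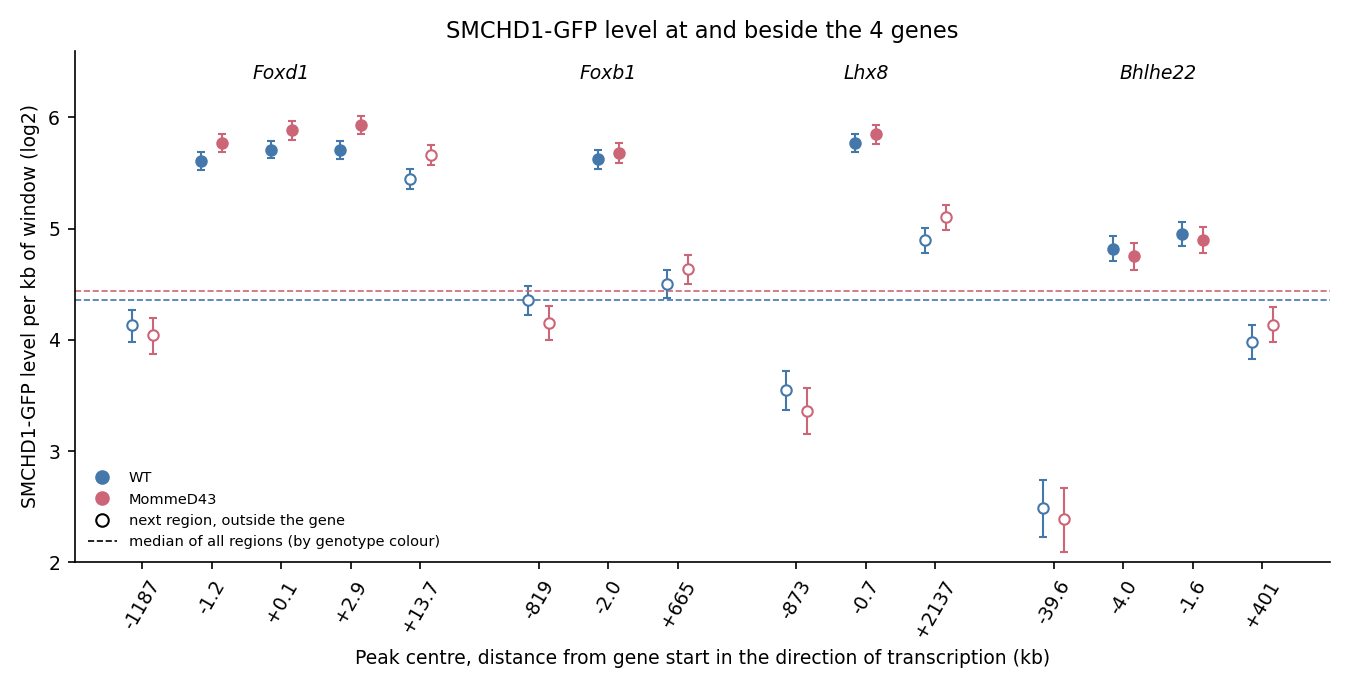
SMCHD1-GFP level per kb of window (log2) in WT (blue) and MommeD43 (red), with 95% counting intervals, at the regions of each gene (filled) and the next listed region on each side (open), by distance of the peak centre from the gene start. Filled points lie above the dashed medians of all regions at every gene, lowest at Bhlhe22.

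Differences between genotypes were small at all 7 regions. MommeD43 minus WT, on the log2 scale of the deposited values, was 0.17 at the main Foxd1 region (interval 0.06 to 0.29), 0.06 at Foxb1 (-0.07 to 0.18), 0.08 at Lhx8 (-0.04 to 0.20) and -0.05 at Bhlhe22 (-0.21 to 0.11). As ratios, MommeD43 stood at 113% of WT at Foxd1, 104% at Foxb1, 106% at Lhx8 and 96.4% at Bhlhe22. None of the 7 was over 0.5 apart, as were 1.69% of all regions, 1.23% higher and 0.458% lower in MommeD43. That split depends on the centring, since 35 regions were over 0.5 higher and 13 lower as deposited, 20 higher and 30 lower once the median difference of all regions was subtracted, and 29 higher and 15 lower after a fit on level. MommeD43 was the higher in 5 of the 7, a share near the 66.0% of all regions. The 3 Foxd1 windows among these 5 overlap, and by main region MommeD43 was the higher at 3 of the 4 genes. Among regions that share no bases with another, 59.0% were higher in MommeD43. The median difference of all regions was 0.07 with an SD of 0.19.

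The 3 Foxd1 regions had intervals above 0, and the other 4 had intervals that included 0. Of all regions, 27.0% had an interval above 0 and 4.05% had one below. Intervals narrow as reads rise, and the Foxd1 windows had more reads than the median region. These shares are thus not matched for reads. The other Foxd1 differences were 0.16 (0.04 to 0.28) at the upstream peak and 0.22 (0.11 to 0.34) at the peak in the 3′ UTR, and the region after the gene differed by 0.22 (0.09 to 0.35). The 3 windows share between 6850 and 9850 bases with each other, so they are largely 1 measurement. At Bhlhe22 the other region differed by -0.07 (-0.24 to 0.10), and its window shares 8200 bases with the main one. Between the genes, the difference at Foxd1 exceeded that at Bhlhe22 by 0.22 (0.03 to 0.42), and in the other 5 of the 6 pairs the interval included 0. Once differences were centred on those of regions with like levels, as described next, Foxd1 exceeded Bhlhe22 by 0.17 (-0.02 to 0.37), and this interval included 0 too.

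Set against regions of the same level, the Foxd1 difference was within counting error of what the table gave. A locally weighted fit of the difference on the level, across all regions, gave 0.13 at the level of Foxd1 and Lhx8, 0.11 at Foxb1 and 0.08 at Bhlhe22. After subtracting it, Foxd1 stood at 0.04 (-0.07 to 0.15), Foxb1 at -0.06 (-0.18 to 0.07), Lhx8 at -0.05 (-0.16 to 0.07) and Bhlhe22 at -0.13 (-0.29 to 0.03). Less the median difference of all regions, Foxd1 was at 0.10 (-0.02 to 0.21) and its interval included 0, Foxb1 was at -0.02 and Lhx8 at 0.01. The sign at Foxb1 and Lhx8 thus turned with the centring, whereas the value stayed below 0 at Bhlhe22 and above 0 at Foxd1 under each. After either centring, each main region had an interval that included 0. Of the other Foxd1 regions, the one at the 3′ UTR stood at 0.15 (0.03 to 0.26) less the median, beyond counting error, and at 0.09 (-0.02 to 0.21) after the fit on level. The region after the gene, which shares no bases with the Foxd1 windows, stood at 0.14 (0.02 to 0.27) less the median, at 0.11 (-0.02 to 0.24) after the fit on level and at 0.13 (0.0032 to 0.26) after a fit on GC content.

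**Figure D4:**
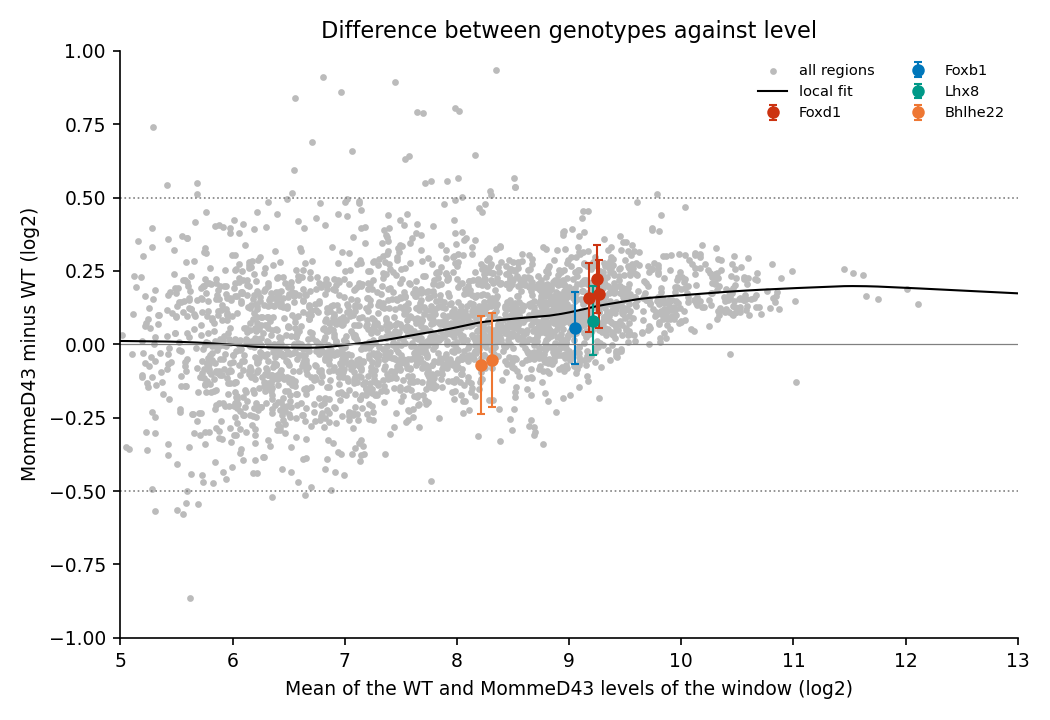
MommeD43 minus WT (log2) against the mean level of the window (log2) for all regions (grey), with a local fit (black line), dotted lines at 0.5 in either direction, and the 7 regions of the 4 genes in colour with 95% counting intervals. 38 regions lie outside the axes. The Foxd1 points sit just above the line, Foxb1 and Lhx8 just below it and Bhlhe22 further below.

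The RNA table gives the direction in which each gene changed in frontonasal prominences. The study reports nearly all of the changed genes as lower in MommeD43. RNA of Foxd1, Foxb1, Lhx8 and Bhlhe22 was lower in MommeD43 too, a direction not particular to these genes. Beside this, SMCHD1 in NSCs was higher at the main Foxd1 region by more than counting error before centring and not after it, the region at the Foxd1 3′ UTR was so also less the median of all regions but not after the fit on level, and a difference was not detectable at this depth at Foxb1, Lhx8 and Bhlhe22. The transcripts that share the windows, B230323A14Rik at Foxb1 and AI606473 at Lhx8, are in the same table. Both were lower, as were nearly all genes of that table. The embryos carried the allele of the mutagenesis screen on an FVB/NJ background and no GFP tag. A pair of them was used for each genotype, and their labels give MommeD43 as male and WT as female, so sex and genotype cannot be told apart in that comparison.

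The families of the 4 genes were described by all their listed genes. Regions were found at 11 of 44 forkhead genes (25%), 4 of 12 annotated LIM homeobox genes (33.3%) and 9 of 33 annotated neural bHLH genes (27.3%), against 1188 of 21911 protein-coding genes (5.42%). The 4 genes, chosen for lying near peaks, add to these shares, and without them the counts were 9 of 42, 3 of 11 and 8 of 32. The lists too were chosen with earlier results known, so the excess is partly set by the choice. Median WT levels per kb of their main windows were 5.53, 5.64 and 4.95 in that order, against 4.68 for the main windows of all protein-coding genes with one. These medians include the 4 genes, and that of the neural bHLH list is the value of Bhlhe22 itself. They were not recomputed without them. Of these lists the neural bHLH list, most of whose genes act in neurons but which also holds mesodermal and mesenchymal factors such as Hand2 and Twist1, had the lowest median.

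Within the families none of the 4 genes was at an extreme in WT. By WT level per kb, Foxd1 ranked 3 and Foxb1 5 of the 11 forkhead genes, behind Foxa1 (5.96), a factor of endoderm and floor plate, and Foxd2 (5.88). Lhx8 ranked 2 of 4 in WT, after Isl1 (5.88), a factor of motor neurons and heart progenitors, but Lhx8 minus Isl1 was -0.11 (-0.22 to 0.00057), within counting error. In MommeD43 neither Isl1 (5.82) nor Lhx5 (5.81) differed from Lhx8 (5.85) beyond counting error, with Lhx8 minus Isl1 at 0.03 (-0.09 to 0.15) and Lhx8 minus Lhx5 at 0.04 (-0.08 to 0.16). Bhlhe22 ranked 5 of 9 in WT, with Hand2 (5.86), a factor of heart, limb and branchial arches, at the top and Neurod4 (3.30) at the bottom.

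The median difference between genotypes was 0.11 in the forkhead list, 0.10 in the LIM homeobox list and 0.09 in the neural bHLH list, against 0.07 over all regions. These medians and the list counts that follow include the 4 genes. MommeD43 was the higher in 11 of 11, 3 of 4 and 7 of 9 main regions as deposited, in 8, 3 and 5 of them less the median difference of all regions, in 6, 2 and 5 after the fit on level and in 4, 1 and 5 after a fit on GC content. Of the 1058 main regions of all protein-coding genes, 67.4% were higher in MommeD43 as deposited, 48.8% less the median, 48.1% after the fit on level and 48.9% after that on GC content. Of all regions the shares were 66.0%, 50.0%, 49.3% and 50.2% in the same order. Centring sets the share over all regions near 50%, so the fall is not a finding. No main region of these lists was over 0.5 apart. Lhx5, a factor of the forebrain, had the largest difference among them at 0.30 (0.18 to 0.42), and Foxd2 had 0.24 (0.13 to 0.34). Ferd3l had the lowest at -0.08 (-0.31 to 0.14), next to Isl1 at -0.06 and Bhlhe22.

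**Figure D5:**
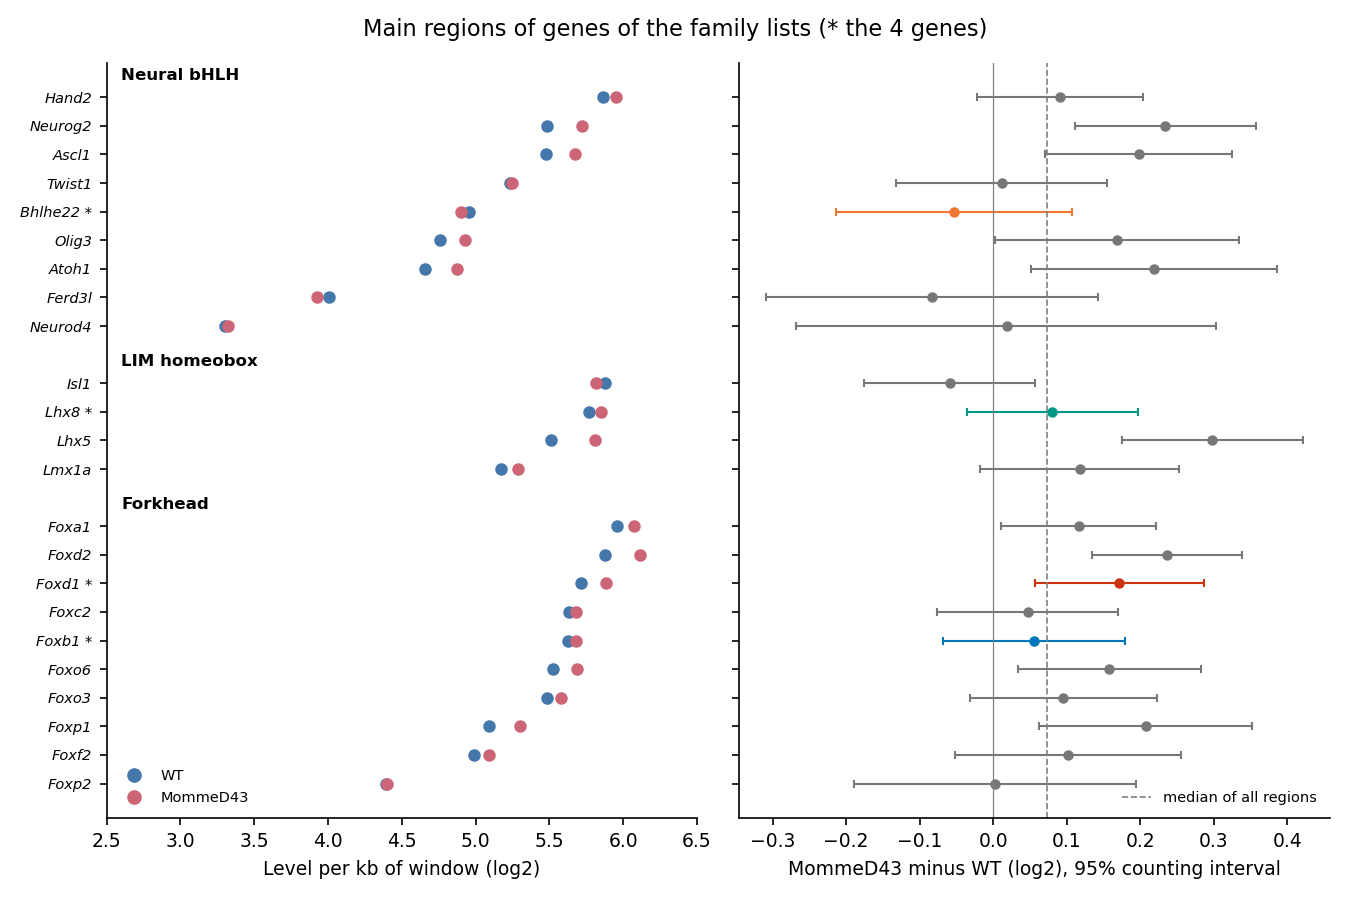
Left, level per kb of the main window (log2) of forkhead, LIM homeobox and neural bHLH genes, in WT (blue) and MommeD43 (red). Right, MommeD43 minus WT (log2) with 95% counting intervals and the median of all regions as a dashed line. The 4 genes are starred. In MommeD43 Isl1 and Lhx5 lie within counting error of Lhx8 (5.85), and the interval of Foxd1, as deposited, does not reach 0 but reaches the dashed line.

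Genes most like Foxd1, Foxb1 and Lhx8 were found in the family lists by the Euclidean distance between their pairs of deposited log2 values, WT and MommeD43, over 2 genotypes. Foxb1 was nearest to Foxc2, another forkhead gene, at a distance of 0.01, with levels of 9.04 and 9.09 at Foxc2, and then to Foxo6 at 0.08. Foxd1 was nearest to Hand2 (0.09) and Lhx8 (0.10), and Lhx8 to Foxd1 (0.10) and Isl1 (0.10). The distances were taken without regard to window length. Per kb of window, WT and MommeD43 levels were 5.71 and 5.88 at Foxd1, 5.77 and 5.85 at Lhx8, and 5.86 and 5.95 at Hand2. On that scale Lhx8 was nearer to Foxd1 than Hand2 was.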

How the data were processed

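Per the labels and the study's methods, the authors trimmed reads with Trim Galore 0.4.4, mapped them with Bowtie2 2.3.4.1 to GRCm38.p6 and counted them in SeqMonk over published SMCHD1 peaks with 5000 bases on each side. They scaled the counts to total library size, took log2 and merged 3 lines per genotype, and the deposited values are these log2 values. This scaling leaves in any difference between libraries in how many of their reads lie in peaks.

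Every window was its peak plus 5000 bases (2840 of 2840). Of 43 low values (product of the reads of the libraries under 10000, the lowest value of each column left out), 43 gave a whole product within 0.05, with 0 reads entered as 0.9. The mean log2 library factors were 0.46 (WT) and 0.68 (MommeD43), and reads per library are geometric means. Intervals (95%) were Poisson for levels and exact binomial for differences, on 3 times those reads; for differences of differences a normal approximation was used. Local fits used 0.3 of the regions. Levels per kb are values minus log2 of the window length in kb.

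Genes came from GENCODE M21 and sequences from RefSeq GRCm38.p6. The main region of a gene shares most bases with its span (ties went to the peak nearest the gene start). Of the 24 family genes with a region, 23 could be named and were drawn; 1 is counted in its list but not reported here, and for this reason the genes most like Bhlhe22 are left out. The 4 genes and the lists were chosen with earlier results of these data known. Functions were tested on simulated data. Python 3.11.15, NumPy 2.4.6, pandas 2.3.3, SciPy 1.17.1, statsmodels 0.14.6, Matplotlib 3.10.9 and pysam 0.24.0 were used.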

Additional observations from a re-analysis of the deposited data

How the results depend on the processing

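No paired analysis was possible because the authors merged the 3 lines of a genotype into 1 column, and for the same reason no line could be left out. Ranking by level per kb kept all 8 percentiles of the 4 main regions within the range of their counting intervals. Ranking among regions that share no bases with another raised all 8, in WT to 97.1 at Foxd1, 94.7 at Foxb1, 96.8 at Lhx8 and 78.4 at Bhlhe22, and in MommeD43 to 97.6, 93.9, 96.3 and 75.0. The windows of Foxd1 and Bhlhe22 overlap others themselves. Among the regions that do, an alternative chosen after seeing the data, Foxd1 fell to 59.3 in WT and 59.8 in MommeD43, and Bhlhe22 to 31.0 and 26.9, below the median. Overlapping regions had a median WT level of 8.97, against 7.24 for the rest.

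Of 12 recomputed differences, 7 stayed within the counting interval. After the fit on level, Foxd1 was at 0.040 and Lhx8 at -0.047. After a fit on GC content, Foxd1 was at 0.026, Foxb1 at -0.093 and Lhx8 at -0.059. The cause was not tested. Asking that the peak share a base with the gene left 2 regions, at 1 gene, in place of 7 regions at 4 genes.

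The number of regions over 0.5 apart was 48 as deposited, 34 among regions without shared bases, 50 less the median and 44 after the fit on level. Of these, 72.9% were higher in MommeD43 as deposited, 61.8% among regions without shared bases, 40.0% less the median and 65.9% after the fit on level. Depth limits the main regions to differences of about the distance from the value to the ends of its interval, and variation between lines is not known.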
